A study of Mus musculus with 12 samples.

Results

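The response of Bmpr1a-/- mouse embryonic stem cells to 3 days of co-culture with wild-type cells was examined across 17620 genes. It was read from 6 of the series' 12 Affymetrix MoGene 1.0 ST arrays, as the log2 value of 3 arrays of mixed Bmpr1a-/- cells minus that of 3 arrays of separate Bmpr1a-/- cells. Each gene was represented by the probe set with a single gene symbol and the highest mean signal over the 12 arrays. The mixed group was a GFP-labelled Bmpr1a-/- line grown for 3 days in N2B27, a serum-free medium, together with an equal proportion of unlabelled wild-type cells and then recovered by fluorescence-activated sorting for GFP. The separate group was the same GFP-labelled line grown alone in N2B27 for 3 days. The other 6 arrays held the unlabelled wild-type line, 3 from the mixed and 3 from the separate cultures, and serve for comparison and in the error that the fit shares over the 4 groups. Genotype goes together with the GFP label and the cell line, so these cannot be told apart, and the sources used here do not say whether a line was 1 clone. The sources used here do not say whether the separate cultures were also sorted. The mixed and separate groups may thus differ in sorting as well as in company, and the part of sorting in the results was not tested. Replicates 1 to 3 of each group carry the experiment numbers of the file headers. Adjusted p-values rest on each difference set against the spread between arrays within the 4 groups.

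Bmpr1a encodes a type I receptor for bone morphogenetic proteins (BMP), secreted factors that act through Smad proteins and the Id genes. In stem cells leaving the naive state, Nodal signalling through activin receptors and FGF signalling through ERK shape the epiblast and prepare it for germ layer formation. Cells that grow well alone can be eliminated when they share a culture with fitter neighbours, a process called cell competition, and Bmpr1a-deficient stem cells are a model of it. Lysosomes break down macromolecules and carry the machinery through which amino acids activate mTOR, a kinase that promotes growth.

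The 12 arrays had medians of 51.57 to 54.33 and upper quartiles of 166 to 180.25 signal units, on the linear scale of the authors' RMA values. Pairs of arrays correlated between 0.9741 and 0.9972 across genes. On the first principal component of the 6 Bmpr1a-/- arrays, which held 44.1% of their variance, the mixed arrays lay at -3.49, -13.66 and -15.02 and the separate arrays at 11.94, 18.36 and 1.87. The groups did not overlap on it, and mixed replicate 1 and separate replicate 3 lay closest to each other. Of 13 measured pluripotent stem cell markers, Fut4 lay near the array floor, at 29.8 to 33.8 in mixed and 33.7 to 35.3 in separate arrays. The others were at 202.5 units or more in both groups. Pou5f1, the core pluripotency factor, gave 2471, 2553 and 2674 in mixed and 2796, 3311 and 2876 in separate arrays.

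The targeted gene and the origin of the sorted cells were examined first. In mixed Bmpr1a-/- cells Bmpr1a gave signals of 381, 362 and 365, in separate ones 415, 462 and 424, and in the 6 wild-type arrays 505 to 588. The 6 Bmpr1a-/- arrays lay below every wild-type array, and the change with co-culture did not pass (-0.23, SE 0.07, limma adjusted p = 0.13). The sources used here do not say whether the probes fall within the deletion, so the signal checks the labels only weakly. Xist, the RNA of the inactive X chromosome, told the lines apart: mixed Bmpr1a-/- arrays gave 677, 687 and 699.7, separate ones 533, 745 and 763, and wild-type arrays 23.4 to 30.4. Mixing moved Xist neither down in the sorted Bmpr1a-/- cells (0.04, SE 0.13) nor up in the sorted wild-type cells (-0.04, SE 0.13) by a detectable amount.

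Markers of other cell types were summed next. The summed signal of 23 extraembryonic endoderm genes was 5112 to 5729 in mixed and 3820 to 4601 in separate Bmpr1a-/- arrays, without overlap, and 1 of the 23, Apoe, rose and gave 2575 to 2839 of the mixed and 1279 to 1837 of the separate sums. Among factors of that lineage, Sox17 was near the array floor, at 26.7 to 27.6 in mixed and 26.2 to 30.1 in separate arrays. Gata6 was low too, at 36.5 to 38.7 and 35.4 to 37.1. Gata4 was higher, at 58.4 to 76 and 64.7 to 71.2, and did not pass (adjusted p = 0.99 by limma). Sparc, Lamb1 and Lamc1 of the list were well above the floor, at 608 to 683.5, 533 to 650 and 475 to 616 in mixed arrays. In separate arrays they lay at 578 to 653, 547 to 619 and 429 to 535, and none of them passed. Of the 23 changes 12 were above 0 and 11 below. The sum over 21 trophoblast genes was 3911 to 6095 in mixed and 3756 to 4509 in separate arrays, with 1 fall, Eomes, and with the block also 2 rises, Gata2 and Fgfr2. Peg10 alone gave 1496 to 3082 of the mixed and 1442 to 1951 of the separate sums and did not pass (limma adjusted p = 0.65). Over the 21 genes the median change was 0.15, with 17 above 0. The trophoblast factor Cdx2 lay at 32.9 to 35 and 31.7 to 34.5. Tfap2c, of the same list, lay at 105.1 to 161.5 and 83.7 to 110.9 and did not pass (limma adjusted p = 0.31). Of 24 fibroblast genes none passed (4 at an unadjusted p under 0.05), 3 rose with the block (Fn1, Thy1 and Dcn), and their sums overlapped (4199 to 4591 in mixed, 3889 to 4330 in separate arrays). The summed signal of 29 primitive streak genes was 1419 to 1471 in mixed and 1606 to 1831 in separate arrays, and that of 38 neural genes 4915 to 5797 and 6128 to 8011. The part of such cells in the results below was not tested. In bulk RNA fewer cells of a type and less RNA per cell cannot be told apart.

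Co-culture came with a balanced change of moderate size. Of 17620 genes, 139 rose (0.789%) and 140 fell (0.795%), together 279 (1.58%), with limma p-values adjusted across the whole table by Benjamini-Hochberg and a threshold of 0.05. In all 279, chosen on these same values, the mixed and separate arrays did not overlap. The same sign of change in each of the 3 same-numbered pairs follows from that and is no further support. Such separation of the ranges was seen in 18.0% of all genes, and an unadjusted p under 0.05 in 14.9%. The median rise was 0.54 and the median fall -0.49 on the log2 scale, against a median of -0.017 over all genes. At least a 2-fold change was reached by 6 of the rising and 13 of the falling genes. Pair 2 showed the larger differences, with a median rise of 0.69 and fall of -0.64, against 0.48 and -0.45 in pair 1 and 0.50 and -0.45 in pair 3.

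Same-numbered mixed and separate arrays deviated together from their group means, so each result was also fitted with the replicate number as a block. With the block 878 genes passed (4.98%), 382 higher (2.17%) and 496 lower (2.81%), and they included all 279. The count rested on few arrays: leaving out mixed Bmpr1a-/- replicate 2 or 3 lowered it to 50 or 66, and leaving out separate replicate 2 or 1 to 73 or 130. Fitted on the 6 Bmpr1a-/- arrays alone, 46 genes passed without the block and 816 with it. Of 95 named genes that passed, 26 did so whichever single array was left out. They were the falls of Fst, Nodal, Smad7, Eomes, Myc, Etv4, Dusp6, Il17rd, Ccnd1, Nefl, Nrcam, Ppp4r4, Epha1, Has2, Chst15, Sema6a, Lpar4 and Shisa6, and the rises of Bhlhe41, Aqp3, Renbp, Dpp7, Mcoln1, Gstt2, Trim63 and BC147527. On the 6 Bmpr1a-/- arrays alone 19 of the 26 had a rounded limma adjusted p below 0.05. Myc, Etv4, Aqp3, Trim63 and Mcoln1 stood at 0.05 after rounding, so their call there is not settled. Nodal and Eomes did not pass (limma adjusted p = 0.062 and 0.064). The others of the 95 lost the call in at least 1 of the 12 fits that left out an array.

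**Figure D1:**
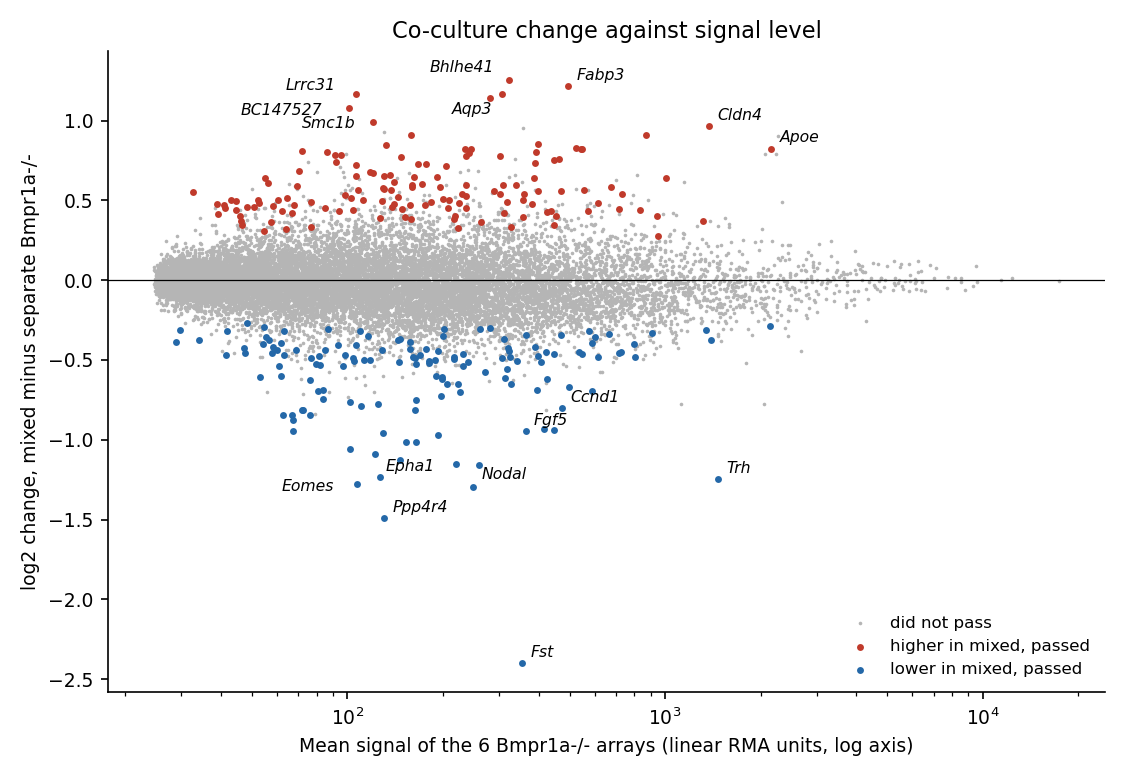
Log2 change of each of the 17620 genes (mixed minus separate Bmpr1a-/- cells, n = 3 arrays each) against its mean signal in the 6 Bmpr1a-/- arrays on a log axis; coloured points passed the limma test. The 139 rises and 140 falls lie at low and at high signal, and Fst, at -2.40, lies apart from all other genes.

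Genes of the Nodal and activin pathway gave the deepest fall. Fst, which encodes follistatin, a secreted protein that binds activin and some BMPs, gave 121, 105 and 97.3 in mixed cells against 517, 893 and 392 in separate cells. Every mixed array was far below the lowest separate array and close to the wild-type range of 73.7 to 104. The change was -2.40 (SE 0.23, adjusted p = 0.0016). Nodal, the ligand that maintains the epiblast and induces mesendoderm, gave 186, 144 and 105 against 409.7, 375 and 272, a change of -1.30 (SE 0.18, adjusted p = 0.006). Its mixed level remained above the wild-type range of 56.8 to 69.4. Smad7, an inhibitory Smad induced by Nodal, activin and BMP signals, fell from 183, 243 and 188 to 109, 104 and 88.9 (-1.02, SE 0.11). Pmepa1, a target and inhibitor of TGF-beta signalling, fell by 0.78 on the log2 scale.

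These were the 4 of 27 measured pathway genes that fell, none rose, and the median over the 27 was -0.10. With the block 6 fell, adding Lefty2, a Nodal antagonist (-0.42, adjusted p = 0.037 with the block), and Ski, a repressor of Smad transcription. Tdgf1, the co-receptor of Nodal, did not pass (-0.78, SE 0.37, adjusted p = 0.36), although its mixed values of 938, 868 and 681 lay below its separate values of 1493, 1294 and 1439. Its wild-type replicates ran from 77.4 to 261, a spread that enters the shared error. The antagonist Lefty1 gave 178, 129 and 81.9 in mixed and 270.0, 158 and 148 in separate cells, with overlapping ranges (adjusted p = 0.3).

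Of 26 measured BMP ligands, receptors and Smads none passed (5 at an unadjusted p under 0.05), with a median of -0.06, and with the block 1 fell, the co-receptor gene Eng (-0.30, adjusted p = 0.034). Smad1, a BMP effector, gave 147, 148 and 153 in mixed and 176, 177 and 177 in separate cells (adjusted p = 0.15). Of 19 BMP target genes 2 fell, Smad7 and the homeobox gene Nkx1-2 (-0.54). The Id genes, which block differentiation factors, did not pass: Id1 gave 65.3, 68.7 and 64.4 against 75.1, 79.7 and 75.4 and Id3 60.1, 59.2 and 46.4 against 80.7, 65.9 and 58.1. Id2 gave 92.1, 80.5 and 66.0 in mixed and 134, 172 and 111 in separate cells (-0.80, adjusted p = 0.056) and passed with the block (adjusted p = 0.0078). With the block 2 BMP targets rose and 4 fell.

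Transcripts induced by FGF and ERK signalling were among the falls. Of 19 transcription factors and feedback inhibitors of the pathway 6 fell and none rose, with a median of -0.37, and 8 fell with the block. The ETS factor gene Etv4 gave 91.3, 82.6 and 87.2 in mixed cells against 153, 219 and 144 in separate cells (-0.96, SE 0.13, adjusted p = 0.0049). In wild-type cells it gave 172, 193 and 173 mixed and 133, 132 and 119 separate, and the change of 0.49 did not pass. Etv1, of the same family, changed by -0.81, and Etv5 by -0.53, which passed with the block alone (adjusted p = 0.1 and 0.037).

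Of the feedback inhibitors, Dusp6, a phosphatase that inactivates ERK, gave 389.6, 385 and 377 in mixed and 579, 659 and 597 in separate cells (-0.67, SE 0.10). Il17rd, a membrane inhibitor of FGF receptors, gave 156, 151 and 163 against 234, 247 and 238 (-0.62, SE 0.07). In both genes the 3 arrays of each group lay close together and the groups were well apart. Spry2 and Spred1, which restrain the pathway upstream of ERK, fell by 0.69 and 0.65 on the log2 scale, while Spry4 did not pass (-0.70, adjusted p = 0.12). Of 24 FGF ligands and receptors 2 fell. Fgf5, a marker of the postimplantation epiblast, gave 296, 230.4 and 216 against 521, 542 and 375 (-0.95, SE 0.15), and Fgf15 gave 181, 166 and 134 against 408, 369.9 and 297 (-1.16, SE 0.18). The receptor gene Fgfr2 (0.35) rose only in the fit with the block (adjusted p = 0.03).

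Of 36 measured genes of the formative and primed epiblast, the state after implantation, 8 fell and none rose (14 fell with the block), and the median was -0.24. Besides Nodal, Fgf5, Fgf15 and Etv4 they were Myc, Trh, Epha2 and Foxd3. Trh, the precursor of thyrotropin-releasing hormone, gave 1246, 719 and 653 in mixed and 2106, 2643 and 1407 in separate cells (-1.25, SE 0.28, adjusted p = 0.043). Epha2, an ephrin receptor, gave 141, 166 and 135 against 227, 298 and 213. Pou3f1, a POU factor of the primed state, gave 182, 175 and 175 against 292, 286 and 203 and passed only with the block (adjusted p = 0.092 and 0.011).

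Among 29 primitive streak and mesendoderm genes 4 fell and none rose. Eomes, a T-box factor needed for mesendoderm, gave 64.7, 58.0 and 58.7 in mixed and 129, 219.9 and 112 in separate cells (-1.28, SE 0.18, adjusted p = 0.006). The separate arrays were 111.5 at the lowest, and all mixed arrays were close to the wild-type range of 40.9 to 60.7. T, which encodes Brachyury, gave 41.2, 39.1 and 53.6 against 69.9, 99.5 and 72.1, and Wnt3, a ligand of streak induction, 56.4, 42.0 and 44.3 against 85.5, 103 and 69.0. These 2 genes changed by -0.85 and -0.84, at low signal in every group. Mixl1 did not pass (-0.38, adjusted p = 0.17).

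Of 38 neural lineage genes 4 fell and none rose. Nefl and Nefm, the light and medium neurofilament genes, changed by -1.23 and -0.84, and Nrcam, a neuronal adhesion gene, by -1.09. Nefl gave 84.8, 74.1 and 66.4 in mixed and 172, 219.6 and 144 in separate cells, and Nrcam 86.0, 65.7 and 84.4 and 161, 162 and 176. The fourth was Trh. Their summed signal, given above, was lower in all 3 mixed arrays, but Trh alone gave 653 to 1246 of the mixed and 1407 to 2643 of the separate sums. The median over the 38 genes was -0.05, with 12 above 0, and 6 fell with the block. Ina and Nefh, further neurofilament genes, passed only with the block (adjusted p = 0.0016 and 0.021).

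Over 36 naive pluripotency factors the median was 0.23, with 27 above 0, but only Esrrb rose and Myc fell (6 rose and 2 fell with the block). Esrrb, an orphan nuclear receptor of the naive state, gave 184, 241 and 198 in mixed and 126, 114 and 133 in separate cells (0.73, SE 0.15, adjusted p = 0.031). Fbxo15 gave 469, 510.4 and 431 against 224, 260.1 and 245 with no overlap (0.95), and passed only with the block (adjusted p = 0.1 and 0.03). Its wild-type replicates ran from 56.5 to 164. Zfp42 (0.48, adjusted p = 0.46), Sox2 (0.29, adjusted p = 0.51) and Pou5f1 (-0.22, adjusted p = 0.23) did not pass in either fit. The signal of Nanog came from probes that also match its pseudogene, and it changed by -0.10 (adjusted p = 0.88).

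Myc fell, as did some genes of ribosome production. Myc, a driver of growth and ribosome synthesis, gave 94.6, 98.5 and 79.0 in mixed and 174, 263 and 168 in separate cells (-1.13, SE 0.15, adjusted p = 0.0049), and the mixed values lay among those of wild-type cells (77.8 to 108). Its paralogue Mycn gave 562, 549 and 410.0 against 798, 911 and 576 and passed only with the block (-0.58, adjusted p = 0.14 and 0.0048). Of 49 ribosome biogenesis and nucleolar genes 5 fell and none rose, with a median of -0.23 and 45 below 0, and with the block 12 fell. Polr1e, a subunit of RNA polymerase I, gave 284, 289.7 and 248 against 378, 354 and 381 (-0.44). Bop1 and Nop2, which act in maturation of the large ribosomal subunit, changed by -0.48 and -0.39, and the nucleolar helicase gene Ddx21 by -0.31. Aimp2, a scaffold of the multi-synthetase complex, was the 1 of 22 aminoacyl-tRNA synthetase genes that fell (-0.42), and Apex1, a DNA repair endonuclease, fell by 0.38 on the log2 scale. None of 31 genes of purine, pyrimidine and one-carbon synthesis passed (12 at an unadjusted p under 0.05), with a median of -0.16, and 5 fell with the block.

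Of 39 cyclins, CDKs and inhibitors 7 fell and none rose, in both fits. Ccnd1, cyclin D1, gave 373, 343 and 316 in mixed and 618, 682 and 506 in separate cells (-0.80, SE 0.11, adjusted p = 0.0049). Ccnd2 gave 148, 112 and 128 against 226, 326 and 217 (-0.97), and Cdk6, the partner kinase of D cyclins, changed by -0.51. The E cyclins Ccne1 (-0.40) and Ccne2 (-0.49), which drive entry into S phase, and E2f4, a repressor of cycle genes (-0.45), fell too. The seventh was Cdkn1a, the inhibitor p21 and a target of p53, at 379.7, 326 and 303 in mixed and 508, 575 and 465 in separate cells (-0.62, SE 0.11).

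Of 41 measured genes of p53, the tumour suppressor, and its targets 3 fell, Cdkn1a, Plk2 (-0.48) and Epha2, and none rose; with the block 9 fell, and the median was -0.14. Mdm2, the ligase that degrades p53, gave 814, 701 and 630.4 against 926, 1119.7 and 797 and passed only with the block (adjusted p = 0.14 and 0.033). Trp53 itself gave 882, 896 and 884 in mixed and 1024, 1131 and 997 in separate cells and did not pass (adjusted p = 0.23). None of 36 genes of the apoptosis machinery passed by limma (6 at an unadjusted p under 0.05), with a median of -0.05, and with the block 1 fell, the nuclease gene Dffb (-0.51, adjusted p = 0.019). Bbc3, which encodes the p53-induced killer PUMA, gave 162.7 to 178 in mixed and 167 to 179 in separate arrays.

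**Figure D2:**
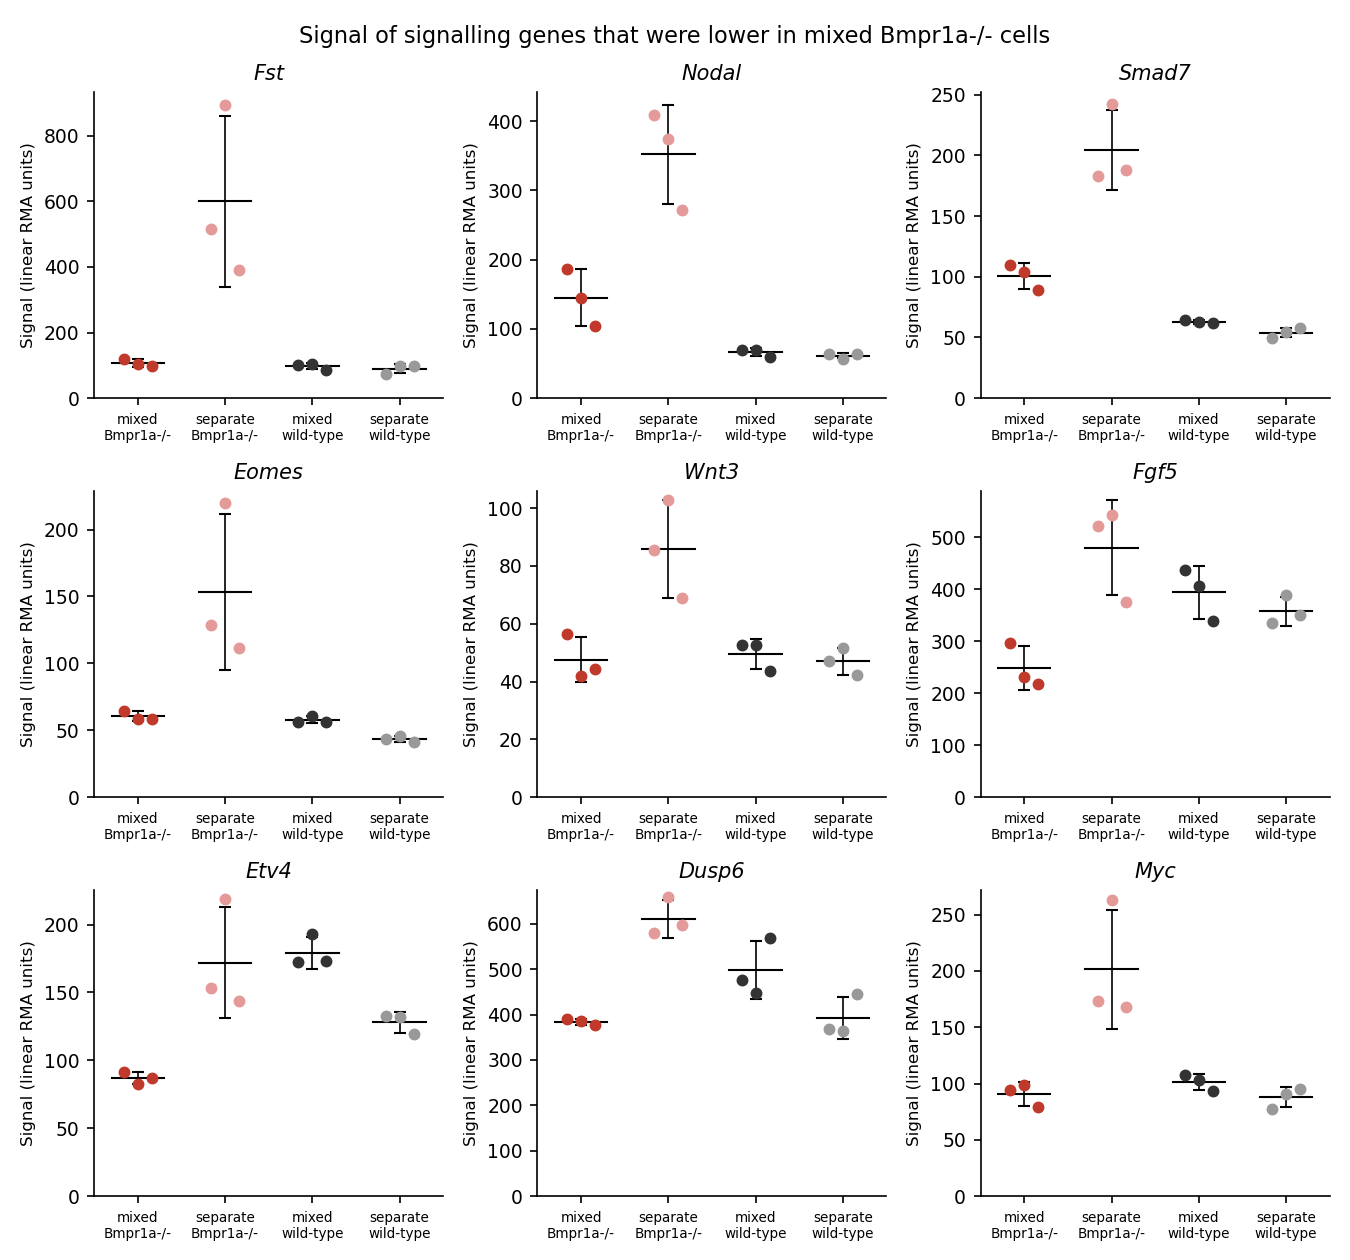
Signal of 9 genes that fell, in linear RMA units, for each of the 12 arrays; points are arrays, horizontal bars group means and whiskers 1 SD (n = 3). In each panel the 3 mixed Bmpr1a-/- arrays lie below the 3 separate Bmpr1a-/- arrays, as for Dusp6 at 377 to 389.6 units against 579 to 659.

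Lysosomal enzymes, the longest of the 49 lists, held the highest number of rises. Over all genes 0.789% rose, and of the 15 measured 2-cell embryo genes, a shorter list, 3 rose. Of 58 lysosomal enzyme genes 10 rose and none fell (16 rose with the block), with a median of 0.24. Of 41 lysosomal membrane proteins and transporters 6 rose and none fell (14 rose with the block), with a median of 0.31. None of 19 subunits of the vacuolar ATPase, the proton pump that acidifies lysosomes, passed without the block (8 at an unadjusted p under 0.05) and 4 rose with it, with a median of 0.19. Over the 118 genes of these lists together 16 rose and none fell, and 34 rose with the block.

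Among the enzymes, Hexa, a subunit of hexosaminidase, gave 613, 698 and 785 in mixed and 443, 307 and 449 in separate cells (0.82, SE 0.14, adjusted p = 0.017). Dpp7, a dipeptidyl peptidase, gave 324, 292 and 284 against 162, 163 and 183 (0.82, SE 0.11, adjusted p = 0.005). Ifi30, a thiol reductase that unfolds proteins for degradation, gave 1209, 1008 and 1175 against 709.9, 462 and 658, with a higher adjusted p of 0.04. Neu1, a sialidase, and Ctsa, the protective protein that Neu1 needs, rose by 0.62 and 0.56. The fucosidase gene Fuca2, the glycoprotein amidase gene Aga and the progranulin gene Grn rose by 0.65, 0.44 and 0.44. Separate replicate 2 was the lowest separate array in each of the enzyme genes above except Dpp7, as for Hexa at 307. Scpep1 and Gaa passed only with the block (adjusted p = 0.024 and 0.025).

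Among membrane proteins, Mcoln1 encodes a calcium channel of the lysosome that takes part in signalling to the nucleus. It gave 523, 559 and 602 in mixed cells against 393, 349 and 403 in separate cells (0.56, SE 0.08, adjusted p = 0.0053). In wild-type cells it gave 279, 290.1 and 295 mixed and 319, 351 and 337 separate, and the change of -0.22 did not pass there. Lamp2, a structural protein of the lysosomal membrane, gave 498, 454 and 501 against 277, 275 and 322 (0.74, SE 0.17). Igf2r, the receptor that carries enzymes to the lysosome, gave 440.1, 645 and 668 against 349, 285 and 393 (0.76). Tmem106b, Laptm5 and Pip4p1 rose by 0.58, 0.52 and 0.42, and Cd63 and Cd68 passed only with the block (0.68 and 0.72, adjusted p = 0.0066 and 0.0077). Atp6v0d1 was the pump subunit with the largest change (0.48, adjusted p = 0.054, and 0.023 with the block).

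Many lysosomal genes carry in their promoters a palindrome read by TFEB and related factors, and its letters were looked for in RefSeq promoters of build GRCm38.p6, 250 bases before to 50 after the start site. The letters TCACGTGA, which read the same on both strands, were in the promoters of 6 of 13 lysosomal genes that rose and had an entry, of 8 of 27 that rose with the block (29.6%), of 16 of 94 lysosomal genes in all, and of 225 of 12766 genes tested (1.76%). The longer palindrome with a G before and a C after these letters was in 1 of the 13, 2 of the 94 and 0.611% of genes tested, and the core CACGTG in 6 of the 13, 28 of the 94 and 10.7%. A contrast palindrome, TGACGTCA, was in none of the 13, 2 of the 94 and 3.14%. The 16 lysosomal genes with TCACGTGA had a median change of 0.38 and the other 78 a median of 0.15, a description with no test, since the genes that rose are part of both. The 6 promoters are shown as 60 bases around the first match, 5′ to 3′ on the gene's strand, with TCACGTGA in capitals, because they belong to genes that rose.
Mcoln1, chr8:3500447-3500506, + strand: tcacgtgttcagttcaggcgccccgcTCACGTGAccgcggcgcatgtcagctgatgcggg
Igf2r, chr17:12769722-12769781, - strand: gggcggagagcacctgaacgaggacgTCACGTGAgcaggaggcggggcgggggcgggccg
Pip4p1, chr14:50930871-50930930, - strand: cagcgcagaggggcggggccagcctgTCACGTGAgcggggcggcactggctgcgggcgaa
Dpp7, chr2:25356373-25356432, - strand: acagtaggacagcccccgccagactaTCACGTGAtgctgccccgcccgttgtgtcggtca
Ctsa, chr2:164833734-164833793, + strand: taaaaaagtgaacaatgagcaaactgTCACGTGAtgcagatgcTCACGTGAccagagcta
Ifi30, chr8:70766827-70766886, - strand: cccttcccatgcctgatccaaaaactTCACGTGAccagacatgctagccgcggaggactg
In Mcoln1, Igf2r and Pip4p1 the match began 46, 49 and 55 bases before the start site, in Dpp7 74 and in Ifi30 197. Ctsa, with its first match 13 bases before the start, and Igf2r held 2 matches each. A match of letters is not a bound site.

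Few regulators around the lysosome passed. Over all genes 1.58% passed without the block and 4.98% with it. Of 26 genes of the MiT factors, folliculin, Rag and Tsc group 2 rose and none fell, and with the block 4 rose and 1 fell. Rragc, a Rag GTPase that recruits mTOR to the lysosome, gave 446, 414 and 468 in mixed and 295, 327 and 331 in separate cells (0.48, SE 0.08, adjusted p = 0.014). Tsc1, an inhibitor of mTOR, gave 203, 248 and 252 against 172, 149 and 171 (0.51). The folliculin partners Fnip1 and Fnip2 passed only with the block (0.57 and 0.65, adjusted p = 0.0081 and 0.0048). Mtor itself gave 208, 266 and 265 against 235, 267 and 255 and did not pass (adjusted p = 0.92). Of 28 genes of mTOR complexes and effectors Pdcd4, an inhibitor of translation, rose by 0.64 and the transcription factor gene Foxo1 changed by -0.39, and with the block 1 rose and 2 fell. Of 43 autophagy genes 1 rose, Uvrag (0.50), and with the block 6 rose, among them Gabarap (0.41), and 1 fell.

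**Figure D3:**
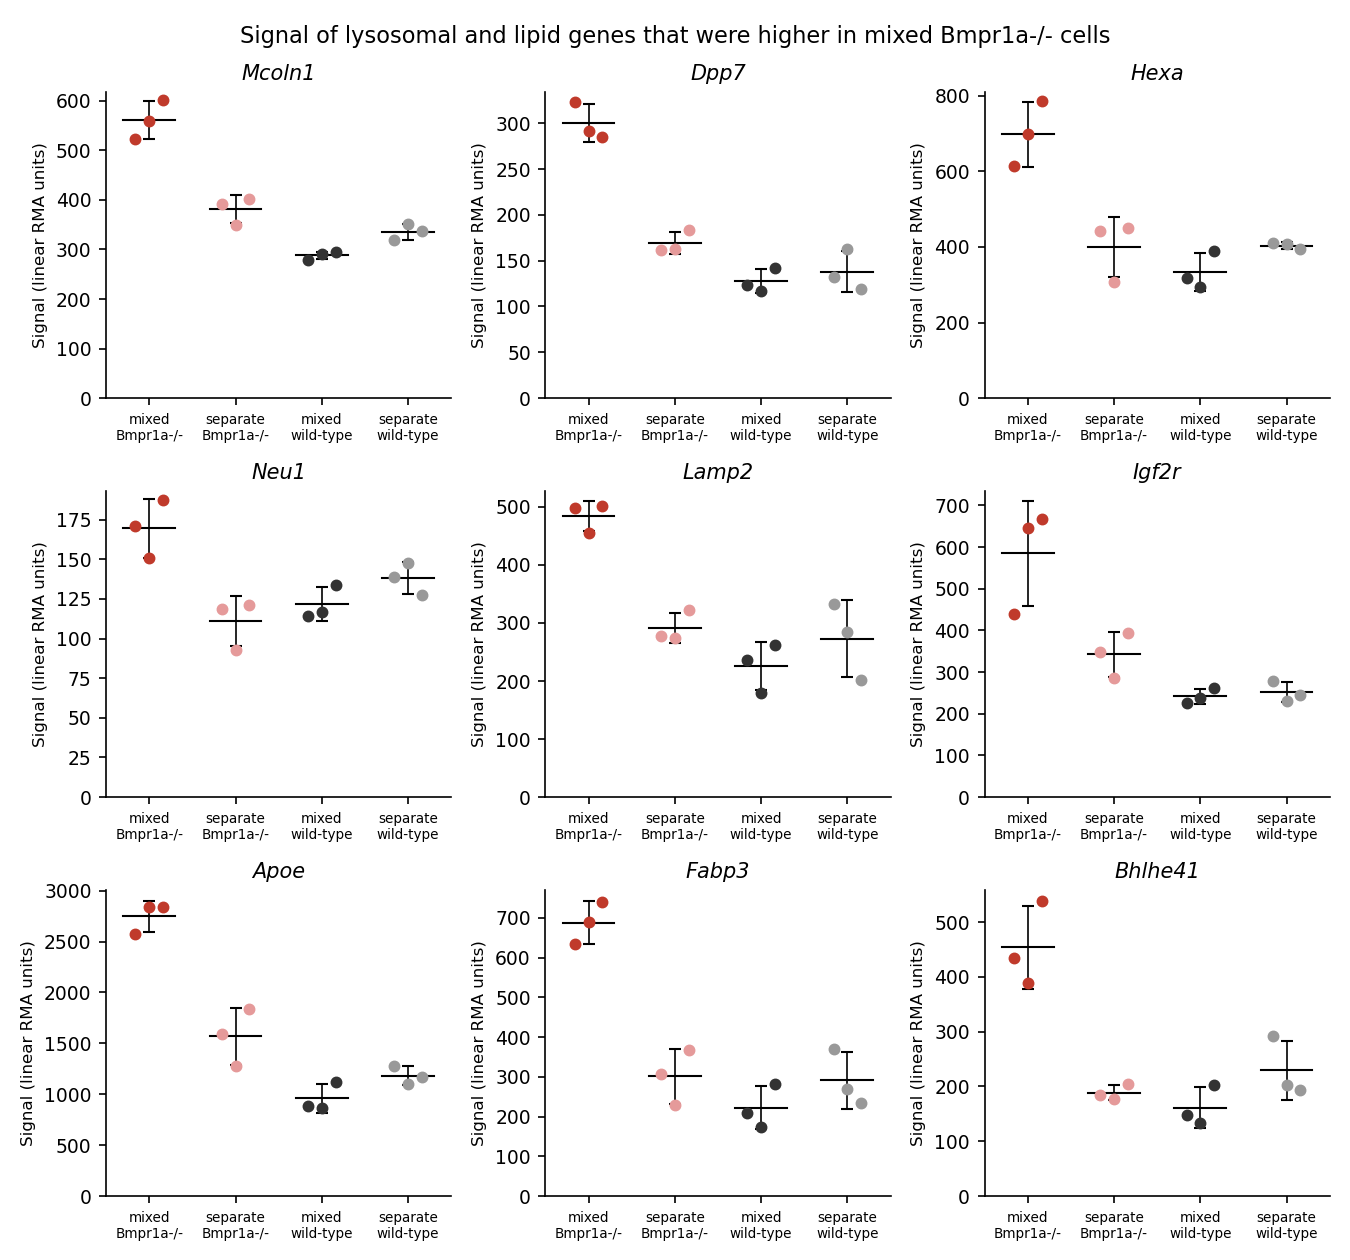
Signal of 9 genes that rose, in linear RMA units, for each of the 12 arrays; points are arrays, horizontal bars group means and whiskers 1 SD (n = 3). The mixed Bmpr1a-/- arrays lie above the separate ones in every panel, as for Mcoln1 at 523 to 602 units against 349 to 403.

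Rises outside the lysosome included genes of lipid handling and of epithelia. Of 38 genes of lipid carriers, storage and fatty acid oxidation 3 rose and 1 fell. Fabp3, which carries fatty acids in the cytoplasm, gave 635, 689 and 741 in mixed and 307, 228 and 368 in separate cells (1.22, SE 0.20, adjusted p = 0.014). Apoe, a lipid carrier of secreted particles, gave 2574, 2839 and 2837 against 1592, 1279 and 1837 (0.82, SE 0.13), and Lpl, a lipase, changed by 0.85. Slc27a2, a fatty acid transporter, fell by 0.45 on the log2 scale. None of 37 cholesterol and fatty acid synthesis genes passed (13 at an unadjusted p under 0.05), with a median of -0.20 and 32 below 0, and 5 fell with the block. Of 45 epithelial junction and channel genes 2 rose, and 5 with the block. Aqp3, a channel for water and glycerol, gave 486, 358 and 425 against 227, 143 and 201 (1.17, SE 0.17), and Cldn4, a tight junction gene, gave 1772, 1721 and 1895 against 1049, 614 and 1200.2 (0.97).

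The largest rise among the named genes was in Bhlhe41, a transcriptional repressor of the circadian clock. It gave 435, 389 and 538 in mixed and 185, 178 and 204 in separate cells (1.25, SE 0.18, adjusted p = 0.006), and was the 1 of 18 clock genes that passed without the block. Its paralogue Bhlhe40 (0.68) and Dbp (0.34) rose only in the fit with the block. Renbp, an enzyme of amino sugar metabolism, gave 647, 652 and 709 against 399, 308 and 433 (0.83, SE 0.11). B2m, the invariant chain of MHC class I, gave 501, 451 and 542 against 304, 225 and 336 (0.81), and Ddx58, the RNA sensor RIG-I, changed by 0.50, the 2 of 32 MHC and interferon genes that rose, and 3 fell with the block. Lrrc31 gave 141, 127 and 174 against 64.7, 51.8 and 82.2 (1.17), and Uap1l1, related to an enzyme of amino sugar activation, 738, 611 and 726 against 493, 313 and 382 (0.82). Gstt2, a glutathione transferase gene, and Trim63, a ubiquitin ligase gene known from muscle, rose by 0.82 and 0.80. Of 38 genes of glycolysis and hypoxia Eno2 (0.72) and Pfkp (0.59) rose, 5 rose with the block, and the glucose transporter gene Slc2a3 passed only with the block (0.79, adjusted p = 0.036).

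Some genes of the 2-cell embryo and of germ cells rose. Of 15 measured 2-cell embryo genes 3 rose and none fell (6 rose with the block), with a median of 0.24. All 3 were Tdpoz genes: Tdpoz3 gave 218, 237 and 163 in mixed and 143, 94.6 and 93.7 in separate cells (0.91), and Tdpoz4 and Tdpoz5 changed by 0.81 and 0.78. In wild-type arrays Tdpoz3 lay at 23.2 to 26.1, at the array floor. These genes are near-identical copies, so probes may be shared among them. Of 37 meiotic and germ cell genes 3 rose: Smc1b, a meiotic cohesin gene, at 142, 166 and 169.5 against 84.4, 61.7 and 97.8 (0.99), Hormad1 (0.59) and Tex14 (0.37). Sycp3, of the synaptonemal complex, passed only with the block (0.93, adjusted p = 0.13 and 0.0077).

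Signalling and surface genes outside these pathways fell as well. Ppp4r4, a regulatory subunit of protein phosphatase 4, gave 80.6, 52.8 and 73.9 in mixed and 174, 197 and 205 in separate cells (-1.49, SE 0.15, adjusted p = 0.0016), while none of the other 6 measured subunits passed. Epha1, an ephrin receptor, gave 152, 122 and 134 against 271, 368 and 275 (-1.15). Has2, which makes hyaluronan, gave 126, 91.9 and 110.4 against 239.8, 197 and 222 (-1.01, SE 0.14), and was with Itga1 (-0.47) and Cd44 (-0.29), a hyaluronan receptor, 1 of 3 falls among 47 integrin and matrix genes; the basement membrane gene Nid1 rose by 0.49, and with the block 2 rose and 4 fell. Chst15, Sema6a, Lpar4 and Shisa6 changed by -1.06, -0.94, -0.93 and -0.87. Prickle1 and Fzd6, of planar cell polarity, fell by 0.75 and 0.35 on the log2 scale, 2 of 26 polarity and cell competition genes. Ezh1 and Mtf2, of Polycomb complexes, rose by 0.60 and 0.28.

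Of 35 WNT genes 1 rose and 2 fell, Rnf43, a ligase that removes WNT receptors, at 0.30, and the falls of Wnt3 and Ccnd1 above. Of 41 Notch, hedgehog and retinoic acid genes 1 fell, the Notch target Nrarp (-0.44), and of 31 Hippo pathway genes none passed (5 at an unadjusted p under 0.05). With the block 1 WNT gene rose and 5 fell, 2 Notch, hedgehog and retinoic acid genes rose and 6 fell, and 1 Hippo gene rose and 3 fell. Igf2r was the 1 of 30 imprinted genes that rose, and with the block 3 rose and 3 fell.

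Probe sets that match several gene symbols were tested apart, since their signal cannot be given to 1 gene. Of 1912 such probe sets 62 passed (3.24%), 56 higher and 6 lower. They carried 28 distinct strings of symbols, 23 of which rose and 5 fell, so many are repeats of a family. Copies of the oocyte homeobox family with Obox4 rose by 1.13 to 1.16. Dux, a driver of the 2-cell state, stood with other symbols in the shared string of 2 probe sets. Of these 1 rose by 0.34 and the other did not pass.

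Lists of stress and respiration held no gene that passed without the block. These were 46 respiratory chain subunits (median -0.10), 38 genes of ATF4 and endoplasmic reticulum stress (-0.08), 29 of oxidative stress (-0.01), 26 immediate early genes (-0.10) and 20 heat shock proteins (0.02). At an unadjusted p under 0.05 the numbers passing were 5, 7, 7, 5 and 4, in that order. With the block Fos and Fosb, immediate early genes that respond to cell handling, passed as lower (adjusted p = 0.04 and 0.047), and 2 immediate early genes rose. Fosb gave 58.7, 55.1 and 105 in mixed and 79.4, 92.0 and 214 in separate cells, with overlapping ranges and the highest value of each group in replicate 3 (adjusted p = 0.66 without the block). The block also called 2 lower ATF4 and stress genes, Sesn2 and Creld2, and 1 heat shock gene in each direction. The stress chaperone gene Hspa5 gave 1321, 1299 and 1249 against 1718, 1537 and 1679 (adjusted p = 0.11).

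**Figure D4:**
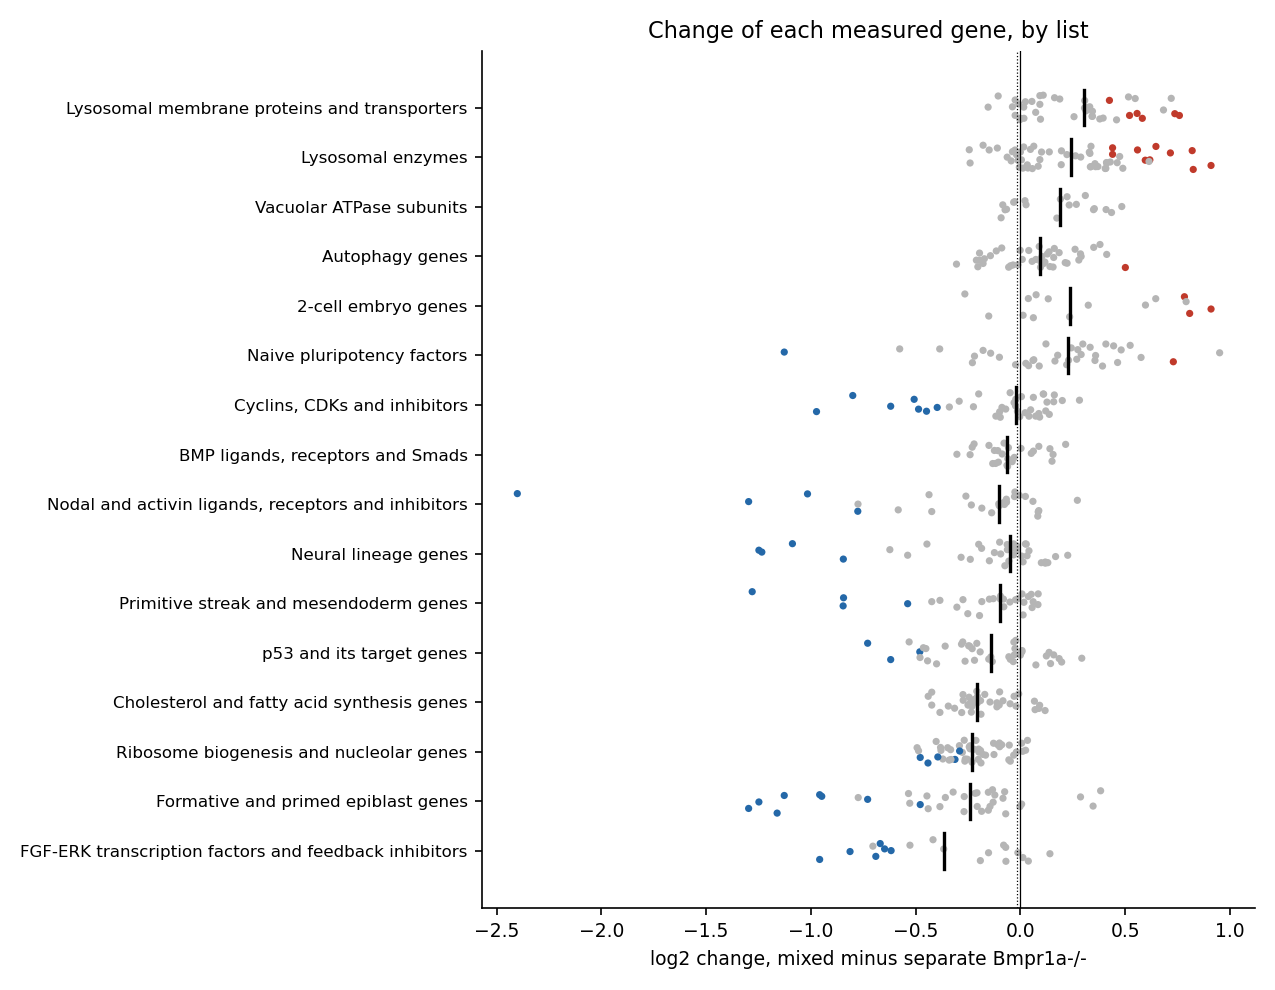
Log2 change (mixed minus separate Bmpr1a-/- cells) of each measured gene of 16 lists; black bars are list medians, the dotted line is the median of all genes, red and blue points passed the limma test. Passing members of the lysosomal lists are all on the right, and those of the FGF-ERK, epiblast, streak and ribosome lists all on the left.

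No gene passed in wild-type cells. In the same limma fit 0 of 17620 genes passed between mixed and separate wild-type cells (0.0%), with or without the block (0.0%), and 516 had an unadjusted p under 0.05 (2.93%). The difference between the changes of the genotypes, tested as an interaction, passed in 121 genes (0.687%), 53 with the Bmpr1a-/- change the higher and 68 with it the lower, and in 11.3% at an unadjusted p under 0.05. With the block 387 passed (2.20%). The count of 121 fell to between 25 and 70 when any of 9 of the 12 arrays was left out, the lowest without mixed wild-type replicate 2. Genes that rose in Bmpr1a-/- cells had a median wild-type change of -0.108, those that fell a median of 0.10, and all genes -0.008.

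Levels in the 4 groups differed in pattern between genes. Fst, Eomes, Ppp4r4 and Myc were high in separate Bmpr1a-/- cells alone, and their interaction terms were -2.53 (adjusted p = 0.0082), -1.69 (0.014), -1.63 (0.0088) and -1.33 (0.02). Bhlhe41 was high in mixed Bmpr1a-/- cells alone, with wild-type values of 148, 134 and 203 mixed and 292, 202 and 194 separate (interaction 1.76, adjusted p = 0.0089). Aqp3 and Renbp were higher in both Bmpr1a-/- groups than in any wild-type array, which reached 87.7 and 245. For Epha1 and Etv4 the wild-type changes were 0.49 and 0.49, opposite in sign to those of Bmpr1a-/- cells, and the interactions passed (adjusted p = 0.0088 and 0.0082). Pmepa1, Trh, Ccnd2 and Cdkn1a did not pass the interaction (adjusted p = 0.2, 0.16, 0.17 and 0.18), and of these Trh passed with the block (adjusted p = 0.033).

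**Figure D5:**
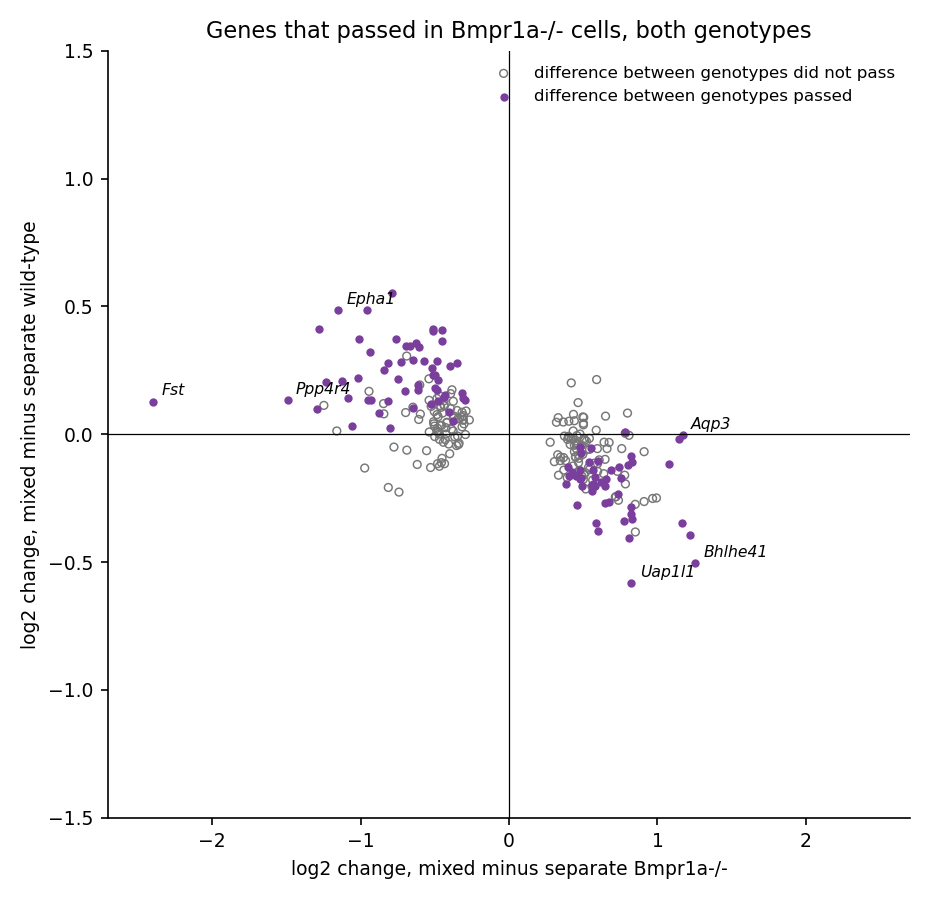
Log2 change with co-culture in wild-type cells (vertical axis) against that in Bmpr1a-/- cells (horizontal axis) for the 279 genes that passed in Bmpr1a-/- cells; filled points also passed the interaction test. The genes were chosen on the horizontal axis, so its wider range is fixed by that choice. Wild-type changes were -0.58 for Uap1l1 and 0.49 for Epha1.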

How the data were processed

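The 12 arrays were hybridised with biotin-labelled RNA, 1 sample each. RMA was run in Affymetrix Expression Console 1.2, per the submitters' processing notes, and per the file headers it used core probe sets with quantile normalization and a baseline at the median of all samples. The deposited log2 values are those RMA values, and the deposited linear sheet holds the same values as intensity, printed here as signal. Per the file headers the authors left out 1 further array. Quantile normalization draws the arrays towards a common distribution, so a change is relative to the other genes. The deposited values did not share exactly the same distribution, with medians of 51.57 to 54.33 and upper quartiles of 166 to 180.25.

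Of 28815 probe sets 22700 had 1 gene symbol in the annotation of the deposited linear sheet, 2478 had several and 3637 had none. Of the 22700 symbols 16822 were current in RefSeq, 4228 were updated and 1650 were kept. Genes were tested where the mean signal was at or above 25.37, the 20th percentile, which left 17620 of 20990. limma 3.58.1 in R 4.3.3 fitted 4 group means over the 12 arrays without a block, with Benjamini-Hochberg adjustment over all genes and a threshold of 0.05. The replicate numbers come from the file headers. Deviations from group means of same-numbered mixed and separate Bmpr1a-/- arrays correlated at 0.394, 0.148 and 0.365, so the blocked value is printed where it changes a call. Wild-type pairs correlated at 0.566, -0.104 and 0.139, and same-numbered arrays across genotypes at -0.239 to 0.641, so the pairing is less clear for the blocked wild-type and interaction counts. The number of arrays, not counting error, limits the precision. The file headers number the arrays of a group as experiments, and what differed between experiments is not stated.

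The members and gene lists were chosen with earlier results of these data known. Named genes were Bmpr1a, the 20 largest rises and falls that passed without overlap, from each list up to 6 members that passed and 2 that did not, the 5 passing genes of highest signal, and a fixed set of regulators (Pou5f1, Sox2, Nanog, Myc, Mycn, Trp53, Cdkn1a, Mdm2, Mtor, Id1, Id2 and Id3). Any other gene named was chosen after its values were seen. Some genes that the lists count are not reported here by name. Alternatives are listed in the closing section.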

Additional observations from a re-analysis of the deposited data

Results flagged for a closer look

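The co-culture change of the following genes differed between Bmpr1a-/- and wild-type cells by the limma interaction test at an adjusted p under 0.05 over all genes. Each value is the log2 change in Bmpr1a-/- cells minus that in wild-type cells, with 3 arrays in each of the 4 groups. Among the genes higher in mixed Bmpr1a-/- cells the difference was 1.76 for Bhlhe41, 1.61 for Fabp3, 1.51 for Lrrc31, 1.41 for Uap1l1 and 1.21 for B2m. It was 1.19 for BC147527, 1.17 for Aqp3, 1.16 for Renbp, 1.13 for Apoe and 1.10 for Hexa. The value was 0.94 for Dpp7, 0.92 for Trim63, 0.90 for Gstt2, 0.80 for Neu1 and 0.79 for Tmem106b. It came to 0.78 for Mcoln1, 0.62 for Rragc and 0.57 for Pip4p1.

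Among the genes lower in mixed Bmpr1a-/- cells the difference was -2.53 for Fst, -1.69 for Eomes, -1.64 for Epha1, -1.63 for Ppp4r4 and -1.44 for Etv4. It was -1.44 for Nefl, -1.40 for Nodal, -1.39 for Has2, -1.33 for Myc and -1.26 for Sema6a. The value was -1.24 for Smad7, -1.23 for Nrcam, -1.10 for Nefm, -1.09 for Etv1 and -1.09 for Chst15. It came to -1.08 for Fgf5, -1.06 for Lpar4, -1.01 for Dusp6, -1.01 for Epha2 and -0.97 for Prickle1. For others it was -0.96 for Shisa6, -0.82 for Ccnd1, -0.82 for Slc27a2, -0.81 for Il17rd and -0.59 for Polr1e. It was -0.45 for Ddx21.

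A signal also lay in probe sets that match several gene symbols, which the gene-level comparison does not use: 62 of 1912 passed between mixed and separate Bmpr1a-/- cells, 56 of them higher. In wild-type cells 0 of the 1912 passed by limma, and 35 had an unadjusted p under 0.05.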

How the results depend on the processing

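Of 279 genes that passed between mixed and separate Bmpr1a-/- cells, the count became 878 with the replicate block, 46 with only the arrays of the groups compared, 816 with both, and 454 with array weights. Leaving out 1 array gave 50 to 390. Leaving out all 4 arrays of a replicate number, with the replicate block, was chosen after seeing the data and gave 200, 82 and 136 for numbers 1, 2 and 3. The 121 genes of the difference between genotypes became 387 with the replicate block and 209 with array weights, 25 to 132 without 1 array, and 43, 58 and 79 without a replicate number. The other settings tried (quantile normalization again, median centring, other signal filters, every probe set, trended or robust variance, the linear sheet) gave 195 to 318 and 88 to 137. Wild-type cells gave 0 in every setting run, against 516 genes at an unadjusted p under 0.05. No named gene changed sign between the main fit and a setting when it passed in either of the 2. Sign changes of named genes that passed in neither were not counted. The 9 list medians of at least 0.2 in size kept their sign, while 13 of all 49 list medians changed sign in at least 1 setting. Of 95 named genes that passed, 72 did not pass with only the arrays of the groups compared, 27 without the signal filter, 23 after median centring, 8 after quantile normalization and none with the block. The causes were not tested. Signal near the array floor limits the low genes.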
